A study of Mus musculus with 15 samples.

Results

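Secreted WNT antagonists are released proteins named for dampening WNT signals outside the cell. In dystrophic mice, 8 genes grouped under that name were followed here. They are Sfrp1, Sfrp2, Sfrp4, Sfrp5, Frzb, Wif1, Dkk2 and Dkk3, chosen by name, and they are 8 of the 56980 genes in the expression table. All mice were DBA/2-mdx, a strain that lacks dystrophin and serves as a model of Duchenne muscular dystrophy. Tibialis anterior (TA) muscle came from mice treated from 3 to 5 months of age, that is for 2 months, and heart from mice treated from 12 to 16 months of age, that is for 4 months. Treatment was given 2 times per week and was either dasatinib plus quercetin (D + Q), a drug pair used to remove senescent cells, or vehicle. Each of the 15 libraries came from 1 mouse, with 4 D + Q and 4 vehicle mice for TA and 3 D + Q and 4 vehicle mice for heart. The 4 D + Q TA mice were labelled male, and the other 3 groups held both sexes by their labels. No mouse with dystrophin is among the libraries analysed here. Tissue, age and length of treatment differed together, so their parts in a difference between TA and heart cannot be told apart. In D + Q mice this extends to sex as read from expression, which was male in all 4 TA and female in all 3 heart libraries.

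WNT proteins are secreted lipid-modified signals that bind Frizzled receptors and, for the β-catenin branch, the co-receptors LRP5 and LRP6. Secreted frizzled-related proteins (Sfrp genes and Frzb) carry a cysteine-rich domain like that of Frizzled and bind WNTs outside the cell, and WIF1 also binds WNTs directly. Dickkopf proteins such as DKK2 act on the co-receptors instead, whereas DKK3 is a divergent family member that is not a classical LRP antagonist. In muscle and heart these proteins are made largely by fibroblasts and other stromal cells, and WNT activity has been linked to regeneration and to fibrosis.

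One library went against its label. Heart D + Q replicate 3 was labelled male, yet Xist, the RNA of the inactive X chromosome, reached 47.2 TPM there and no Y-linked gene examined exceeded 0.0279 TPM. The other 14 libraries matched their labels. Heart values and counts of the members, and of the gene lists set beside them, are therefore given with and without it. Expression was in TPM, a unit that scales each library to the same total after correction for transcript length, and it keeps no record of sequencing depth. Genes above 0 TPM numbered 21830 to 24393 in TA, 24089 to 25378 in vehicle hearts and 22579 to 22818 in D + Q hearts. Markers matched the tissue labels, since all 6 heart muscle genes were called lower and all 6 TA fibre genes called higher in TA than in heart, in vehicle and in D + Q mice alike. Over all genes 14.4% were called lower and 23.1% higher in vehicle mice, and 16.3% and 21.9% in D + Q mice. Tnni3 passed the filter on low values through heart alone and Myh4 and Myh1 through TA alone. Their calls therefore had to go that way and add no support. A gene was called when its adjusted p-value (limma with Benjamini-Hochberg adjustment over all genes tested) was under 0.05 and its absolute log2 fold change of TPM + 0.5 exceeded 0.5. In whole tissue, fewer cells of a type and less RNA per cell cannot be told apart.

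On GRCm39, Sfrp1 lies at chr8:23901263-23939648 on the plus strand, Sfrp2 at chr3:83673481-83681623 (plus), Sfrp4 at chr13:19807274-19817164 (plus), Sfrp5 at chr19:42186410-42190691 (minus) and Frzb at chr2:80242313-80278304 (minus). Wif1 lies at chr10:120869865-120936555 (plus), Dkk2 at chr3:131790336-131886065 (plus) and Dkk3 at chr7:111712904-111758760 (minus), and all 8 are annotated as protein-coding. RefSeq promoters on GRCm38.p6 were matched for 5 of the 8 genes, which leaves Dkk3, Sfrp1 and Sfrp4. The 4 sequences shown are the 250 bases before the gene start of those matched genes whose D + Q hearts all lay below every vehicle heart. Capitals mark matches, on either strand, to CTTTGA (the TCF/LEF core through which β-catenin acts), AGATAA (a core bound by zinc-finger factors of the heart and blood) or TATAAA. They are Dkk2 (chr3:132085042-132085291, plus), Frzb (chr2:80447397-80447646, minus), Sfrp5 (chr19:42202253-42202502, minus) and Wif1 (chr10:121033754-121034003, plus), each written 5′ to 3′ along the gene's strand.
Dkk2: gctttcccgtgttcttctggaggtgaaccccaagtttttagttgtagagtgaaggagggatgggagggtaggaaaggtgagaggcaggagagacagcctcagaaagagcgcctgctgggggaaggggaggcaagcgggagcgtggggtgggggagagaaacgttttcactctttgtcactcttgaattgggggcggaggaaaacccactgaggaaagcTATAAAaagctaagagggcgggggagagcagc
Frzb: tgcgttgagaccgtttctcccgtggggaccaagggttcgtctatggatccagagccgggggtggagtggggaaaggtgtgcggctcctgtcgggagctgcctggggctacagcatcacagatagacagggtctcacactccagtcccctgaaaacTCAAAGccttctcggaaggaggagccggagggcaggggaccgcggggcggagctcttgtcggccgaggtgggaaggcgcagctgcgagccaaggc
Sfrp5: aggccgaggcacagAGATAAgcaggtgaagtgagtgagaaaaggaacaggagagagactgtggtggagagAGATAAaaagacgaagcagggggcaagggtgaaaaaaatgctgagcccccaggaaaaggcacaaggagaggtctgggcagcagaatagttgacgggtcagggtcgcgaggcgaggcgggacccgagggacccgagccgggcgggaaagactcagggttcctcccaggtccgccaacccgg
Wif1: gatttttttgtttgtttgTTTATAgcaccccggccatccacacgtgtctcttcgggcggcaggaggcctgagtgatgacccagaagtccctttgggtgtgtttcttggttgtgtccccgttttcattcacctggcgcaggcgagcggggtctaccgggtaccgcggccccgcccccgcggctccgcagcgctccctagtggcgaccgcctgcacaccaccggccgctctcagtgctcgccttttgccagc
Frzb held 1 TCF/LEF match, on the opposite strand and starting at base -95 from the gene start, and Sfrp5 held AGATAA at 2 places, -236 and -180. Dkk2 held TATAAA at -32 and Wif1 held it on the opposite strand at -232. Sfrp2, the other matched gene, held none of the 3 motifs. Of 32851 promoter windows of this length, 13.8% held CTTTGA, 9.99% AGATAA and 12.4% TATAAA, so each is common, and a match is a description of the letters only. No motif was shared by all 4 windows.

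The order of the members differed between tissues, with Sfrp1 and Frzb abundant in both. In vehicle hearts the mean level was highest for Dkk3 at 17.9 ± 10.8 TPM (SD, n = 4), followed by Sfrp1 at 13.3 ± 2.36, Frzb at 12.2 ± 5.27, Sfrp2 at 10.8 ± 8.71 and Wif1 at 10.7 ± 2.87. The ranges of neighbouring genes in this order overlapped, so their order is not resolved. A gap followed, with Sfrp5 at 0.649 ± 0.260, Sfrp4 at 0.554 ± 0.279 and Dkk2 at 0.198 ± 0.0683 TPM. In D + Q hearts Sfrp1 led at 11.05 ± 1.41 TPM (SD, n = 3) without overlap with the next gene, Frzb at 7.94 ± 0.599, and Dkk3 stood below Wif1 and Sfrp2 at 2.85 ± 0.566. In vehicle TA Sfrp4 and Frzb led at 9.41 ± 3.80 and 9.26 ± 2.61 TPM, ahead of Sfrp5 at 5.53 ± 2.30 and Sfrp1 at 4.56 ± 1.03, with overlap between neighbours. Lower means were those of Sfrp2 at 2.54 ± 0.689, which did not overlap Sfrp1, Dkk3 at 2.10 ± 0.638, Wif1 at 1.22 ± 1.17 and Dkk2 at 1.13 ± 0.118 TPM. In D + Q TA the first 4 were Frzb at 7.47 ± 2.42, Sfrp5 at 6.04 ± 2.78, Sfrp4 at 5.94 ± 3.06 and Sfrp1 at 4.02 ± 1.06 TPM. Sfrp1 did not overlap the next gene, Dkk3, although the lowest Sfrp4 library lay below the highest Dkk3 and Sfrp2 libraries. The 8 genes summed to 47.4 to 110 TPM in vehicle hearts, 29.9 to 39.3 in D + Q hearts, 29.9 to 44.3 in vehicle TA and 18.6 to 39.8 in D + Q TA.

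**Figure D1:**
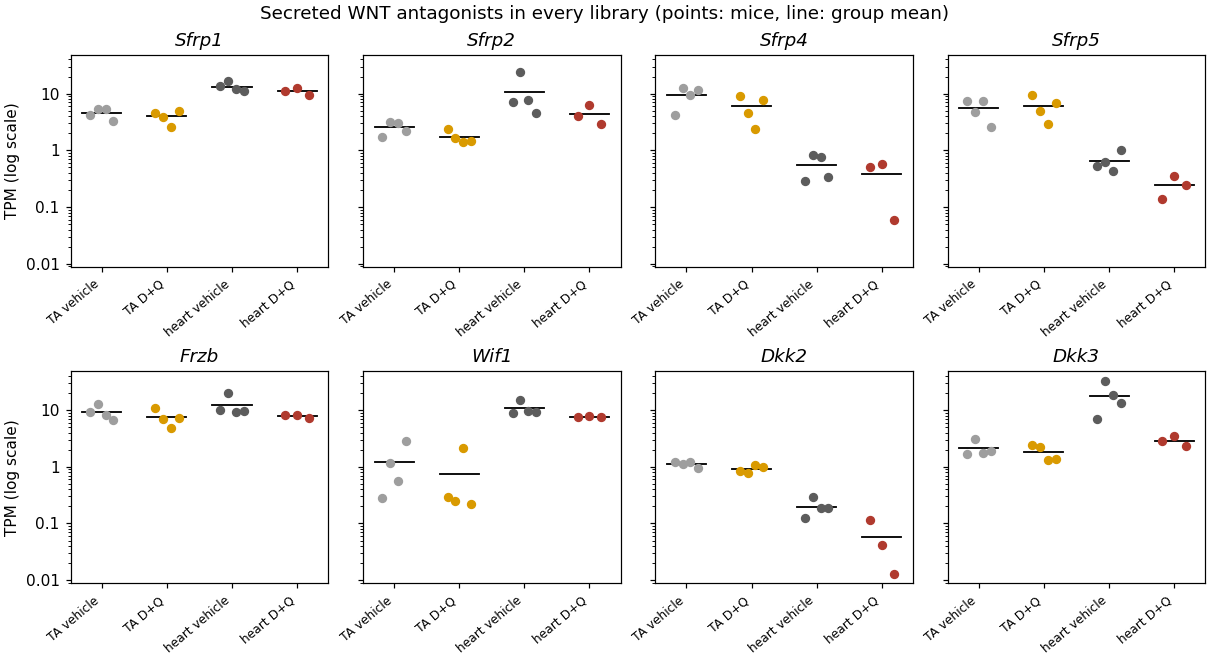
TPM on a log axis for the 8 secreted WNT antagonist genes in each of the 15 libraries, with 1 point per mouse and a line at the group mean. Sfrp4, Sfrp5 and Dkk2 sit higher in TA and Sfrp1, Sfrp2 and Wif1 higher in heart, and in Dkk3 the D + Q hearts (2.30 to 3.43 TPM) sit below the vehicle hearts (7.08 to 32.5 TPM).

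The first comparison was D + Q against vehicle in heart. Dkk3 was lower in D + Q hearts and was the single member called, and the other 7 members also had lower means in D + Q hearts without reaching the threshold or, for Dkk2, without being tested. In 5 of the 8 members (Sfrp5, Frzb, Wif1, Dkk2 and Dkk3) every D + Q heart lay below every vehicle heart. This held for 4 of the 7 members tested, Dkk2 being under the filter, against 5.57% of all genes tested in heart. Of the 7 members that passed the filter on low values, 1 was called lower, against 0.211% of all genes, and 6 had an unadjusted p-value under 0.05 in that direction, against 7.99%. Their median log2 fold change was -0.57, beside -0.0025 over all genes, of which 50.5% were negative. Sfrp5 passed the filter through vehicle hearts alone and so had to be lower in the others. Without it, 3 of 6 members did not overlap, 5 had an unadjusted p-value under 0.05, 1 was called and the median was -0.52. Without the mislabelled D + Q replicate 3, the number of non-overlapping members was still 5, the number called was 0 and the number with an unadjusted p-value under 0.05 was 3 (Sfrp2, Wif1 and Dkk3, limma). Of the 7 members tested in that fit 4 did not overlap, beside 1180 of 15963 genes lower without overlap. Over all genes 4 were called lower, and 982 were lower at an unadjusted p-value under 0.05. With fewer D + Q hearts, lack of overlap is reached more easily. Leaving out any other heart gave 5 to 7 non-overlapping members.

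Dkk3, the divergent Dickkopf, was at 7.08, 32.5, 18.6 and 13.4 TPM in vehicle hearts 1 to 4 and at 2.80, 3.43 and 2.30 TPM in D + Q hearts 1 to 3. The highest D + Q heart was below the lowest vehicle heart, and the vehicle hearts themselves were widely spread. The log2 fold change was -2.43 (SE 0.31, 95% confidence interval -3.15 to -1.71), a 5.38-fold lower level on the TPM + 0.5 scale, with an adjusted p-value of 0.0370 from limma. Without D + Q replicate 3 the difference was -2.80 with an adjusted p-value of 0.142, so the call was lost while the size was not. Over the 7 fits that leave out 1 heart, the difference ran from -2.80 to -2.14 and the call held in 2, those without vehicle replicate 1 (adjusted p-value 0.0246) and without vehicle replicate 3 (0.0471). With sex read from expression in place of the label it was -2.92 (adjusted p-value 0.0254), and by that reading the 3 D + Q hearts were all female, as were vehicle hearts 2 and 3.

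The levels of Dkk3 and of atrial muscle genes were lower in the same hearts. The list held Myl7, Myl4, Sln, Nppa and Bmp10, of which Myl7 and Myl4 encode atrial myosin light chains and Sln encodes sarcolipin, a small inhibitor of the calcium pump. Its summed level was 864, 4260, 2221 and 1104 TPM in vehicle hearts 1 to 4 and 382, 427 and 427 TPM in D + Q hearts 1 to 3. Dkk3 and the atrial sum ranked the 4 vehicle hearts in the same order, with replicate 2 highest and replicate 1 lowest. Most of that sum was Nppa, at 2956 TPM in vehicle heart 2. By the mean log2 level of the 5 genes, replicate 3 was highest (7.46, against 7.05 in replicate 2). Bmp10 was lowest in vehicle heart 2, at 0.106 TPM against 1.64 to 20.4 TPM in the other vehicle hearts. Of these 5 genes, 3 were called lower (Myl7, Myl4 and Sln), against 0.211% of all genes, and 4 did not overlap between groups, against 5.57%. Sln and Bmp10 passed the filter through vehicle hearts alone and so had to be lower in the others, which leaves the calls of Myl7 and Myl4. The 3 calls held without D + Q replicate 3, where 4 of 15963 genes were called lower. Myl7 was at 94.1, 730, 541 and 283 TPM in vehicle hearts and at 3.99, 4.54 and 3.46 TPM in D + Q hearts, and 2 of the 5 genes were under 0.5 TPM in all D + Q hearts. With the mean atrial score as a covariate in place of labelled sex, the Dkk3 difference was 1.05 (SE 0.90, adjusted p-value 0.849, limma). Its standard error was wider than the 0.31 of the fit with labelled sex. The score, a mean log2 level, was 2.08 to 2.47 in D + Q and 5.27 to 7.46 in vehicle hearts, without overlap. Treatment and score therefore cannot be told apart in the fit with the score. That fit also turned the sign of Sfrp2, Sfrp4, Frzb and Wif1 and moved the median over all genes to 0.305. In TA, where Dkk3 was at 1.34 to 3.05 TPM, the atrial list summed to 38.1 to 84.9 TPM, nearly all of it Myl4 at 34.4 to 79.6 TPM, and Myl7 was listed at 0 in all 8 libraries.

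**Figure D2:**
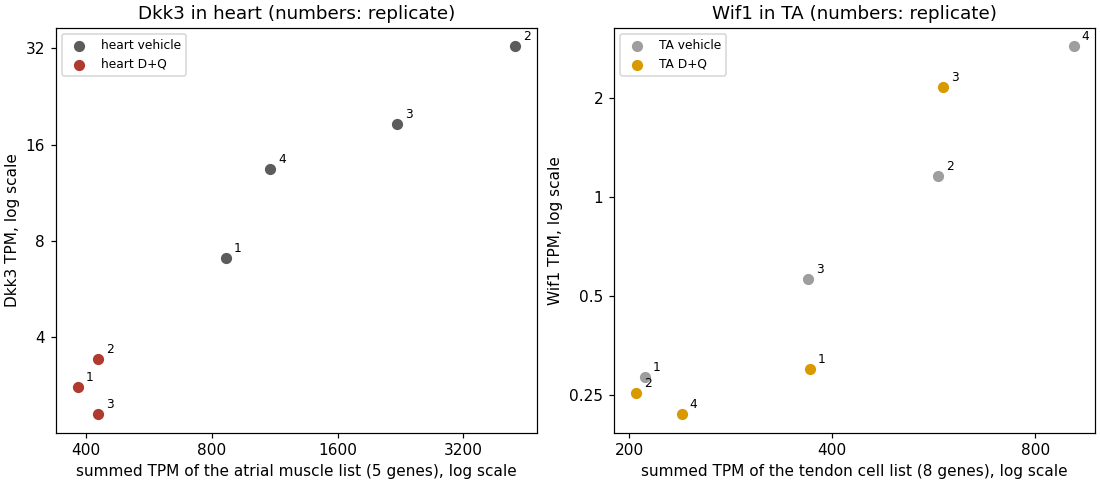
Left, Dkk3 TPM against the summed TPM of 5 atrial muscle genes in the 7 hearts, and right, Wif1 TPM against the summed TPM of 8 tendon genes in the 8 TA libraries, both on log axes with replicate numbers beside the points. Dkk3 is highest in vehicle heart 2, where the atrial sum is 4260 TPM, and Wif1 is highest in vehicle TA 4, where the tendon sum is 911 TPM.

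Among the frizzled-related genes and WIF1, the widest difference in heart was in Sfrp2, a matrix-associated WNT binder of fibroblasts. It was at 7.09, 23.7, 7.80 and 4.62 TPM in vehicle hearts and 4.00, 6.40 and 2.91 TPM in D + Q hearts, with overlap between the groups. The log2 fold change was -1.16 (SE 0.38, adjusted p-value 0.182, limma), and without vehicle replicate 2 it was -0.72. Frzb, first described in cartilage, was at 9.88, 20.1, 9.12 and 9.60 TPM in vehicle hearts and 8.26, 8.31 and 7.25 TPM in D + Q hearts. The 3 D + Q hearts lay just under the vehicle range. The difference was -0.57 (SE 0.24, adjusted p-value 0.276), and without vehicle replicate 2 it was -0.27. Wif1 was at 9.01, 14.96, 9.63 and 9.11 TPM in vehicle hearts and 7.65, 7.82 and 7.53 TPM in D + Q hearts. Among D + Q hearts its SD was 0.144 TPM, the smallest of the 5 abundant members. The difference was -0.46 (SE 0.16, adjusted p-value 0.192), and -0.28 without vehicle replicate 2.

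Sfrp1, the other abundant frizzled-related gene of heart, was at 13.3, 16.6, 11.9 and 11.3 TPM in vehicle hearts and 11.2, 12.4 and 9.56 TPM in D + Q hearts. The groups overlapped, and the difference was -0.28 (SE 0.13, adjusted p-value 0.305). Sfrp5, known also as a product of fat cells, was at 0.533, 0.618, 0.426 and 1.02 TPM in vehicle hearts and 0.137, 0.348 and 0.242 TPM in D + Q hearts, with a difference of -0.58 (SE 0.22, adjusted p-value 0.233). Sfrp4 was at 0.285, 0.833, 0.753 and 0.346 TPM in vehicle hearts and 0.498, 0.573 and 0.0595 TPM in D + Q hearts. These groups overlapped, and the difference was -0.41 (SE 0.16, adjusted p-value 0.243). Dkk2 was at 0.126, 0.291, 0.191 and 0.185 TPM in vehicle hearts and 0.116, 0.0422 and 0.0131 TPM in D + Q hearts, which is under the filter of 0.5 TPM in 3 libraries, and it was not tested. Without D + Q replicate 3 the differences were -1.35 for Sfrp2, -0.68 for Frzb, -0.60 for Wif1, -0.24 for Sfrp1, -0.47 for Sfrp5 and -0.32 for Sfrp4, with adjusted p-values from 0.341 to 0.623.

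Fibroblast and epicardial marker genes had lower estimates in D + Q hearts. All 11 fibroblast genes had negative log2 fold changes, 7 with an unadjusted p-value under 0.05 (limma) and 0 called. Over all genes 7.99% were lower at that p-value. The fibroblast sum was 764 to 875 TPM in D + Q against 903 to 1307 TPM in vehicle hearts. The 6 epicardial and mesothelial genes all had an unadjusted p-value under 0.05 in the lower direction with 0 called, and summed to 13.2 to 16.4 TPM against 19.1 to 27.2 TPM. The 6 heart muscle genes were higher in every D + Q heart with 0 called, beside 1553 of 16132 genes higher without overlap. The 6 smooth muscle and pericyte genes had a median of -0.04 and were mixed. Rgs5 was at 0.23 (adjusted p-value 0.126, limma) and higher in every D + Q heart. Myh11 was at -0.53 (adjusted p-value 0.149) and lower in every D + Q heart, and Cnn1 was at -0.94 (adjusted p-value 0.192). Of 4 tendon genes tested, 3 were negative, 2 of them with an unadjusted p-value under 0.05. Fmod was at 1.52 to 2.80 TPM in D + Q and 4.08 to 6.60 TPM in vehicle hearts. Scx was at 0.38 (adjusted p-value 0.206) and higher in every D + Q heart. Without D + Q replicate 3, 10 of 11 fibroblast genes and 6 of 6 epicardial genes were negative, 5 of each with an unadjusted p-value under 0.05, the 6 heart muscle genes still did not overlap, and 0 genes of these lists were called. In that fit 8389 of 15963 genes were negative, 982 of them with an unadjusted p-value under 0.05, and 2830 were higher without overlap. The part of these lists in the members' differences was not tested.

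**Figure D3:**
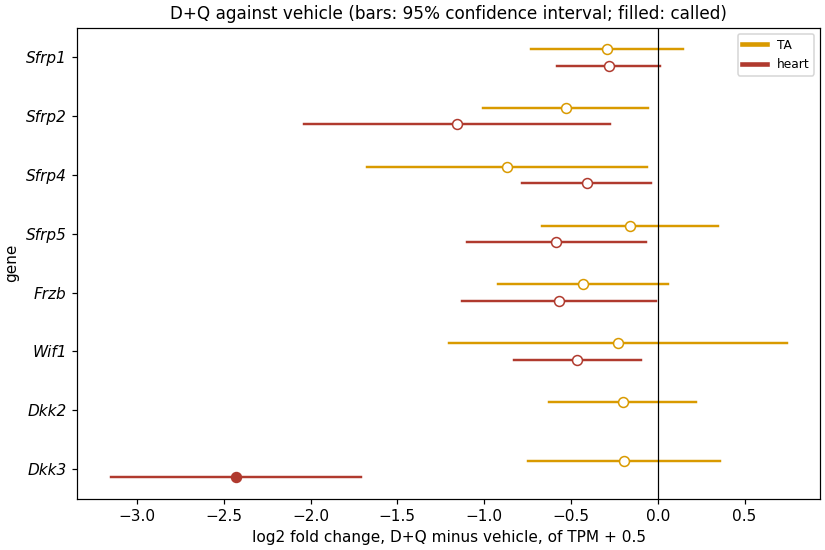
Log2 fold change of TPM + 0.5, D + Q minus vehicle, in TA (upper bar of each pair) and heart (lower bar), with 95% confidence intervals and filled points for called genes. Dkk3 in heart (-2.43) is the single filled point, all 15 estimates are negative, and Dkk2 has no heart value because it was under the filter.

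In TA no member was called between treatments. The study's own test on counts did report genes that differed in TA, so a lack of calls here does not show that nothing differed. The number called was 0 of 8, as it was over all genes (0%), and every adjusted p-value of a member was 0.999 (limma with 1 surrogate variable). At an unadjusted p-value under 0.05, 2 members were lower, Sfrp2 and Sfrp4, against 2.36% of all genes. No member had groups that did not overlap, against 1.25% of all genes lower without overlap. The median log2 fold change of the members was -0.26, beside -0.07 over all genes, of which 66.4% were negative. Some marker lists were wholly negative in that fit, with 0 called. They were the fibroblast (10 of 10 genes, median -0.29), tendon (8 of 8, -0.41), endothelial (5 of 5, -0.25), adipocyte (5 of 5, -0.53) and Schwann cell lists (5 of 5, -0.10). Other lists were mixed or positive. Negative there were 4 of 6 smooth muscle and pericyte, 3 of 6 leukocyte, 3 of 5 heart muscle and 2 of 6 TA fibre genes. So were 1 of 3 atrial, 0 of 2 cartilage and bone and 0 of 1 epicardial genes. The part of these lists in the members' values was not tested. All 8 member estimates were negative in that fit, though the mean TPM of Sfrp5 was higher with D + Q, and Sfrp5, Dkk3 and Wif1 turned positive under other covariates.

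Sfrp4, which in TA was the most variable of the abundant members, was at 4.13, 12.8, 9.31 and 11.4 TPM in vehicle mice 1 to 4 and 9.18, 4.57, 2.36 and 7.67 TPM in D + Q mice 1 to 4. Its difference was -0.87 (SE 0.36, unadjusted p-value 0.0377), and without D + Q replicate 3 it was -0.14. The vehicle mice at 12.8 and 11.4 TPM were the female TA mice, by label and by Xist, whereas all D + Q TA mice were male. The part of sex in the Sfrp4 difference was not tested. Sfrp2 was at 1.71, 3.13, 3.09 and 2.23 TPM in vehicle TA and 2.41, 1.66, 1.38 and 1.48 TPM in D + Q TA. D + Q libraries 2 to 4 were below all vehicle libraries, and the difference was -0.53 (SE 0.21, unadjusted p-value 0.0324). Frzb was at 9.36, 12.8, 8.21 and 6.67 TPM in vehicle TA and 10.7, 7.07, 4.81 and 7.30 TPM in D + Q TA, with a difference of -0.43 (SE 0.22). Sfrp1 was at 4.22, 5.46, 5.31 and 3.26 TPM and at 4.59, 3.95, 2.58 and 4.98 TPM, respectively, with a difference of -0.29 (SE 0.20). For these genes the groups overlapped.

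Sfrp5 in TA was at 7.30, 4.79, 7.43 and 2.59 TPM with vehicle and 9.42, 4.88, 2.93 and 6.94 TPM with D + Q, and the difference was -0.16 (SE 0.23). Dkk2 was the steadiest member, at 1.22, 1.12, 1.21 and 0.967 TPM with vehicle and 0.841, 0.789, 1.06 and 0.975 TPM with D + Q, and differed by -0.20 (SE 0.19). Dkk3 was at 1.70, 3.05, 1.76 and 1.89 TPM with vehicle and 2.42, 2.23, 1.34 and 1.38 TPM with D + Q. Its difference of -0.19 had a 95% confidence interval of -0.74 to 0.36, which does not reach the size seen in heart.

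Wif1 split the TA libraries in another way than treatment. It was at 0.282, 1.16, 0.562 and 2.89 TPM in vehicle mice 1 to 4 and 0.299, 0.253, 2.17 and 0.218 TPM in D + Q mice 1 to 4. Each group held high and low libraries, and the difference was -0.23 (SE 0.44). The 3 libraries with the highest Wif1, vehicle 4, D + Q 3 and vehicle 2, were also the 3 with the highest level of Chad, a cartilage and tendon matrix gene, at 117, 90.1 and 23.9 TPM against 4.72 to 14.6 TPM in the others. The 8 tendon genes together summed to 911, 584 and 574 TPM in those 3 libraries and to 205 to 371 TPM in the others. Vehicle 2 and vehicle 4 were also the female TA mice, by label and by Xist, while D + Q 3 was male. With labelled sex as a covariate the Wif1 difference was 0.18 (SE 0.54). The parts of tendon tissue and of sex in the Wif1 level were not tested.

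The next comparison was between tissues within a treatment. In vehicle mice 7 of the 8 members were called. Of these, 3 were higher in TA (Sfrp4, Sfrp5 and Dkk2), against 23.1% of all genes called higher, and 4 were lower in TA (Sfrp1, Sfrp2, Wif1 and Dkk3), against 14.4% called lower. The log2 fold changes, TA minus heart, were 3.17 (SE 0.39) for Sfrp4, 2.32 (SE 0.33) for Sfrp5 and 1.23 (SE 0.13) for Dkk2, with adjusted p-values from limma of 8.11e-06, 3.16e-05 and 2.19e-06. They were -1.45 (SE 0.20) for Sfrp1, -1.66 (SE 0.37) for Sfrp2, -2.90 (SE 0.44) for Wif1 and -2.65 (SE 0.34) for Dkk3. Frzb differed by -0.33 (95% confidence interval -0.89 to 0.22, adjusted p-value 0.317). The median over all genes was 0.16. Dkk2 entered this test through TA alone, where it was high, and without it 2 members were called higher and 4 lower of 7.

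In D + Q mice 6 members were called in the same directions, 3 higher in TA, against 21.9% of all genes, and 3 lower, against 16.3%. Without Dkk2, which again entered through TA alone, 2 were higher and 3 lower of 7. Sfrp4 differed by 2.79, Sfrp5 by 3.04, Dkk2 by 1.35, Sfrp1 by -1.38 and Wif1 by -2.98. Sfrp2 differed by -1.10 (SE 0.40, adjusted p-value 0.0369), and its call was lost in 5 of the 15 fits without 1 mouse. All 5 left out a D + Q mouse (TA replicate 2, 3 or 4, or heart replicate 1 or 2), with adjusted p-values of 0.0621 to 0.161 from limma. Among D + Q mice, the call held only without TA replicate 1 or heart replicate 3. Leaving out a vehicle mouse cannot move this estimate. The call was also lost with labelled sex as a covariate (-0.65, adjusted p-value 0.215), a pseudocount of 1 (0.0508) and no filter (0.0799). Dkk3, at 1.34 to 2.42 TPM in D + Q TA and 2.30 to 3.43 TPM in D + Q hearts, differed by -0.53 (95% confidence interval -1.32 to 0.25, adjusted p-value 0.260). Frzb differed by -0.13 (adjusted p-value 0.736). Without heart D + Q replicate 3 the number called was still 6, with differences of 2.49 for Sfrp4, 3.05 for Sfrp5, 1.29 for Dkk2, -1.47 for Sfrp1, -1.34 for Sfrp2, -2.99 for Wif1, -0.65 for Dkk3 and -0.19 for Frzb.

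**Figure D4:**
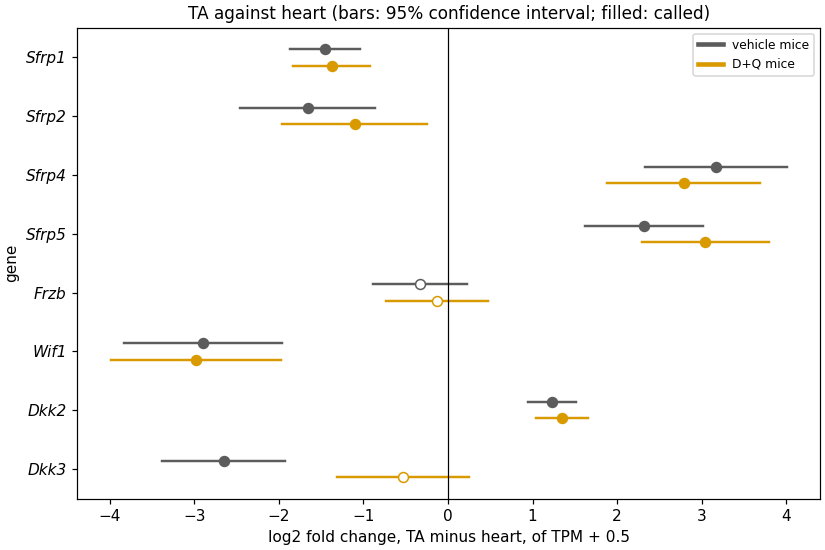
Log2 fold change of TPM + 0.5, TA minus heart, in vehicle mice (upper bar of each pair) and D + Q mice (lower bar), with 95% confidence intervals and filled points for called genes. Frzb is open in both, and Dkk3 is filled in vehicle mice (-2.65) and open in D + Q mice (-0.53).

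Whether treatment differed between tissues was tested with an interaction term over all 15 libraries. No member was called (0 of 8, limma), against 0.0628% of all genes, and 1 member, Dkk3, had an unadjusted p-value under 0.05. The treatment difference of Dkk3 in TA exceeded that in heart by 2.12 (SE 0.50, unadjusted p-value 7.2e-04, adjusted p-value 0.259). It was called with labelled sex as a covariate (2.60, adjusted p-value 0.0490) and without vehicle heart replicate 1 (2.48, adjusted p-value 0.0369), and was 2.00 (adjusted p-value 0.497) without heart D + Q replicate 3. For the other 7 members the interaction was between -0.38 (Sfrp4) and 0.72 (Sfrp5), with adjusted p-values from 0.917 to 0.997.

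Other genes of the pathway gave few calls with treatment. Of 10 further WNT antagonists, 3 passed the filter in heart and 1 was called lower. Apcdd1 is counted both in this list and among the β-catenin targets below. The called gene was in this list only. It was Igfbp4, an IGF-binding protein that can also inhibit WNT reception, at 61.3, 72.2, 58.3 and 56.8 TPM in vehicle hearts and 41.1, 44.0 and 34.5 TPM in D + Q hearts. No D + Q heart reached the vehicle range, and the difference was -0.67 (SE 0.09, adjusted p-value 0.0420). Without D + Q replicate 3 it was -0.60 (adjusted p-value 0.222), so that call was lost. None of 4 WNT ligands, 15 receptors and co-receptors, 4 R-spondins and their receptors, 13 genes of WNT secretion and transduction or 8 β-catenin targets tested in heart was called. At an unadjusted p-value under 0.05 there were 0, 1, 3, 3 and 3 of them, beside 17.6% of all genes in either direction. Without D + Q replicate 3 there were 0, 2, 3, 1 and 2, beside 933 higher and 982 lower of all 15963 genes, and 0 genes of these lists were called. Among ligands the smallest p-values were for Wnt5b (-0.24) and Wnt11 (-0.06). Among receptors they were for Kremen1, a Dickkopf receptor (0.28, adjusted p-value 0.126), and Fzd7 (-0.28, adjusted p-value 0.349). For R-spondins and their receptors they were for Rspo1, a WNT potentiator (-0.66, adjusted p-value 0.0934), and Lgr4 (0.28, adjusted p-value 0.133), and in transduction for Dvl3 (0.30) and Gsk3a (0.17). Among targets they were for Apcdd1 (-0.74, adjusted p-value 0.144) and Nkd1 (-0.70, adjusted p-value 0.150), both feedback inhibitors of the pathway. Rspo1 was at 2.57, 2.31, 2.88 and 2.21 TPM in vehicle hearts and 1.46, 1.48 and 1.31 TPM in D + Q hearts, without overlap. Without D + Q replicate 3 it was at -0.65 (adjusted p-value 0.294), and Kremen1 was at 0.33 (adjusted p-value 0.305).

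In TA 0 genes of these 6 lists were called, and 0 of them had an unadjusted p-value under 0.05 (limma). The lowest unadjusted p-values there were for Ccnd1 (-0.39) and Axin2 (-0.35) among targets, Wnt5a (-0.43) and Wnt4 (-0.30) among ligands and Dvl3 (-0.23) and Tcf7l1 (-0.30) in transduction. They were for Ror2 (-0.25) and Lrp5 (-0.19) among receptors, Lgr4 (0.09) and Znrf3 (0.11) among R-spondin receptors and Igfbp4 (-0.23) and Apcdd1 (0.02) among antagonists. Between tissues 37.5% of all genes were called in vehicle mice and 38.1% in D + Q mice, and genes of each list were called in vehicle mice. Wnt4 and Rspo3 entered that test through TA alone and Fzd3, Rspo1, Lgr6 and Sost through heart alone, so their calls are not support for a difference. Of 3 further antagonists, Sost (-1.30) and Apcdd1 (-0.88) were lower in TA. Of 5 ligands tested in vehicle mice, 3 were higher in TA (Wnt4 by 1.67, Wnt9a by 0.99 and Wnt11 by 1.06) and 0 lower. Of 15 receptors, 5 were higher, Lrp6 by 0.86 and Ryk by 0.84 among them, and 2 lower, with Fzd6 at -1.22. Of 5 R-spondins and receptors, Rspo3 was higher by 0.95 and Rspo1 (-2.22) and Lgr6 (-1.86) were lower in TA. Of 13 transduction genes 5 were higher, Dvl1 by 1.45. Of 8 targets, Axin2 was higher by 0.80 and Ccnd1 (-1.44) and Apcdd1, which is counted in both lists, were lower. In D + Q mice the calls, higher and lower in TA, were 3 and 1 among ligands, 5 and 2 among receptors, 1 and 2 among R-spondins and their receptors, 3 and 1 in transduction, 1 and 1 among targets and 0 and 0 among further antagonists (limma), where 1 had an unadjusted p-value under 0.05.

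Likeness across the 15 libraries was described by Pearson's r of deviations from the group means, on the log2 scale over 14913 genes, and it carries no p-value since mice, tissue makeup and library share these points. Among 21 pairs of the 7 members that passed the filter in both tissues, 17 had a positive r, with a median of 0.480. The highest was Sfrp1 with Frzb (0.791), and the lowest was Sfrp5 with Wif1 (-0.815). The nearest genes to Wif1 were Angptl7 (0.958), Pla2g5 (0.936) and Fmod (0.922), the last of which encodes fibromodulin and belongs to the tendon list. Those nearest to Dkk3 were Arhgap15 (0.893), Gng2 (0.881) and Rabgap1l (0.867). Sfrp1 was nearest to Arhgap30 (0.970), Rasa3 (0.957) and Slc43a1 (0.953), and Frzb to Add1 (0.941), Plekhm3 (0.928) and Btk (0.924). Sfrp2 was nearest to Apoe (0.898) and Bank1 (0.896), Sfrp4 to Vav3 (0.956), Epsti1 (0.941) and Prr3 (0.941), and Sfrp5 to Plau (0.952), Hspa2 (0.940) and Tnxb (0.928).

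**Figure D5:**
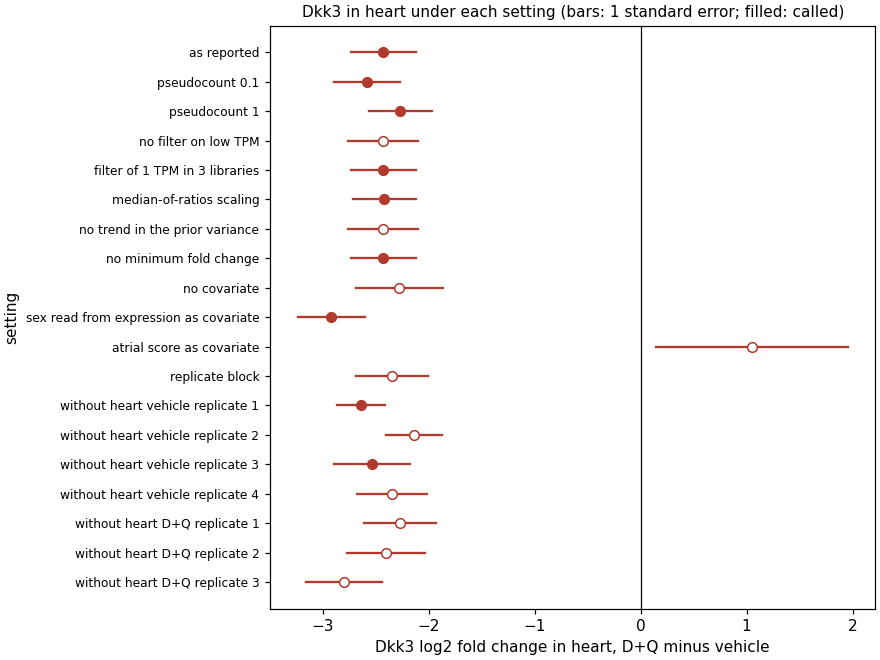
Log2 fold change of Dkk3 in heart, D + Q minus vehicle, under each processing setting, with bars of 1 standard error and filled points where the gene was called. The estimates lie between -2.92 and -2.14 except with the atrial score as a covariate (1.05), and several are open. The atrial score did not overlap between treatments, so that fit cannot tell them apart.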

How the data were processed

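Total RNA from TA and heart of 15 mice was sequenced. Per the labels and the study's methods, the authors trimmed reads with Trim Galore 0.6.10, quantified them with Salmon 1.10.3 against GRCm39 and summarised them per gene with tximport. They deposited TPM values for 56980 genes, of which 56236 were found in GENCODE M39. The annotation release is not given in the sources used here. TPM keeps no depth, so precision comes from the spread between mice, which the labels number separately.

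A gene was kept if 3 or more libraries of a tissue had 0.5 TPM or more, and log2(TPM + 0.5) was fitted with limma 3.58.1 in R 4.3.3. The TA fit held 1 surrogate variable from 5 rounds of reweighting, the heart fit held labelled sex, and tissues and the interaction were fitted over all 15 libraries with no covariate. Fits were tested on simulated data. Members and gene lists were chosen with earlier results of these data known. The text names every member, up to 3 called genes of a pathway list or otherwise the lowest p-values, the 3 genes most like each member (1 of them is not reported here), and marker genes beside a result. The rescaling and leave-one-out runs of the non-overlap count, and the fit of the lists without heart D + Q replicate 3 were added after seeing the data. Alternatives were other pseudocounts, filters, scaling, covariates, a replicate block and leaving out each mouse. Equal replicate numbers mark different animals and did not pair them.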

Additional observations from a re-analysis of the deposited data

Results flagged for a closer look

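In groups of 4 mice, 24 combinations of member and group were examined for a mouse whose gap to the next, as a share of the group's range, exceeded Dixon's 95% critical value, which chance passes in about 1 of 20. This held in 5 of the 24. Vehicle heart replicate 2 was the high library in 3 of them, with 23.7 TPM of Sfrp2, 20.1 TPM of Frzb and 14.96 TPM of Wif1. This is also the heart with the highest Dkk3 and the highest atrial sum. Without it the heart differences were -0.72 for Sfrp2, -0.27 for Frzb and -0.28 for Wif1. In TA, vehicle replicate 2 stood apart with 3.05 TPM of Dkk3, and D + Q replicate 3 with 2.17 TPM of Wif1. What set these mice apart was not tested.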

How the results depend on the processing

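Of 962 alternative values, 903 were judged unchanged. For an estimate this meant the same direction and side of the threshold, and for a count of members an equal or similar number. Among the estimates alone 798 were unchanged, 27 turned their sign, 18 lost a call and 2 gained one. Some runs could not move an estimate, such as leaving out a vehicle mouse between D + Q tissues. The count of members called in heart was 1 and fell to 0 with no filter on low TPM, no trend in the prior variance, no covariate, the atrial score as a covariate and the replicate block, and ran from 0 to 1 over the fits without 1 heart. Under these Dkk3 stayed at -2.43, -2.43, -2.28 and, with the block, -2.34 (adjusted p-values 0.154, 0.0896, 0.0608 and 0.0992), while the atrial score gave 1.05, and 0.39 for Sfrp2, 1.40 for Sfrp4, 0.0319 for Frzb and 0.15 for Wif1. The atrial score replaced labelled sex and did not overlap between treatments, so its fit cannot tell treatment from score. The interaction count of 0 became 1 with labelled sex, and ran from 0 to 1 without 1 mouse. In TA, Sfrp5 was 0.11 without a covariate or with the replicate block and -0.32 to 0.0095 without 1 mouse. Dkk3 in TA was 0.0374 with labelled sex or in males, and Wif1 was 0.18 with labelled sex and -0.54 to 0.11 without 1 mouse. Frzb between D + Q tissues was 0.0335 with labelled sex and -0.31 to 0.0477 without 1 mouse. Interactions that changed sign were Wif1 at 0.0467 with a pseudocount of 1 and 0.36 with labelled sex, and Sfrp4 at 0.16 with labelled sex. Without 1 mouse they ran from -0.54 to 0.32 for Wif1, -0.0605 to 0.25 for Sfrp1 and -0.0545 to 0.38 for Frzb. The causes were not tested. Replicate numbers did not pair the mice, since the correlation of same-numbered deviations was -0.30 to 0.04 in TA and -0.04 to 0.03 in heart, and the block also ended the call of Sfrp2 between D + Q tissues (-0.81, adjusted p-value 0.0568), as did labelled sex (-0.65, adjusted p-value 0.215), a pseudocount of 1 and no filter. Depth is unknown, and members under 1 TPM are the least certain.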
